A study of Mus musculus with 10 samples.

Results

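The genes examined were Scn4a, Scn4b, Clcn1, Atp1b1, Atp1b2, and Fxyd1, which encode sodium channel subunits, the muscle chloride channel, beta subunits of the sodium-potassium pump, and a pump regulator. They were chosen by name as genes of sarcolemma excitability, and all 6 were among the 16112 genes counted. RNA was sequenced from the extensor digitorum longus (EDL, n = 3), psoas (n = 3), and soleus (n = 4) of mice. The methods state that the mice were also used in another study, and they name no treatment before death. All 10 libraries came from wild type mice of the strain B6C3Fe a/a-Ttnmdm/J, a colony that carries a titin mutation, and no library here carries it. EDL and psoas replicates 1, 2, and 3 were aged 42, 54, and 44 days, and soleus replicates 1 to 4 were aged 42, 44, 32, and 44 days. Replicates 1 and 2 of EDL and psoas were male and replicate 3 female, whereas soleus 1 was male, soleus 2 and 4 were female, and the sex for soleus 3 is not given. By the animal codes in the labels, psoas 1 and soleus 1, EDL 3 and soleus 2, and psoas 3 and soleus 4 carry the same code, and 7 codes stand behind the 10 libraries. The methods speak of 6 mice, so a further pair of libraries may share an animal, which was not resolved.

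The sarcolemma carries the action potential that triggers contraction of a muscle fiber. Voltage-gated sodium channels open to start and propagate it, and a chloride channel provides most of the resting conductance that steadies the membrane afterwards. The sodium-potassium pump then restores the ion gradients. It is built from an alpha subunit, which hydrolyzes ATP, and a beta subunit, which is needed for the complex to fold and reach the membrane, while small FXYD proteins adjust its activity.

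Total counts ranged from 12737971 to 50431713 per library, and floors based on them cover counting error only. The intervals given below come from the edgeR fit, whose standard errors include the spread between libraries. A count of 0 allows up to 3 counts, and every library of every muscle held more than that for each of the 6 genes. The fiber markers followed the muscle labels. The summed level of 6 slow fiber genes was 15891 to 26521 normalized CPM (counts scaled by the TMM-normalized library total) in soleus, 56.7 to 311 in EDL, and 28.2 to 63.4 in psoas. The summed level of 6 fast 2B fiber genes was 7354 to 12878 in soleus, 59932 to 88731 in EDL, and 85946 to 90691 in psoas. Reads of EDL 1, EDL 2, psoas 1, and psoas 2 had been quality-trimmed by the authors and those of the other 6 libraries had not. Within EDL and psoas, trimming and sex cannot be told apart. The paper lists a higher RNA integrity number for every EDL library than for any psoas or soleus library. The part of RNA integrity in the differences from EDL was not tested. In whole muscle, fewer cells of a type and less RNA per cell cannot be told apart either.

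Compared per kilobase of exon (RPKM, from normalized counts), Scn4b and Fxyd1 had the highest mean levels of the 6 genes in each muscle and Atp1b2 the lowest. In EDL the means were 71.0 ± 28.1 RPKM for Scn4b, 51.1 ± 12.7 for Fxyd1, 11.2 ± 2.06 for Atp1b1, 9.96 ± 2.07 for Scn4a, 5.87 ± 0.558 for Clcn1, and 1.51 ± 0.560 for Atp1b2 (SD, n = 3). In psoas, Scn4a (20.9 ± 3.66 RPKM) and Atp1b1 (19.4 ± 1.13) differed by less than the spread of Scn4a (SD, n = 3). In soleus, Atp1b1 reached 32.0 ± 4.24 RPKM against 11.4 ± 2.96 for Scn4a, and Atp1b2 was at 0.342 ± 0.0524 RPKM (SD, n = 4).

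A gene was called as differing between 2 muscles at a Benjamini-Hochberg adjusted p under 0.01 in edgeR's quasi-likelihood test and a fold change over 2. In soleus vs EDL, 2 of the 6 genes were called, Atp1b1 as higher and Atp1b2 as lower, where 5.77% of all genes were called (3.59% higher and 2.18% lower in soleus). In soleus vs psoas, 1 of 6 was called, Atp1b2 as lower, where 5.69% of all genes were called (2.71% lower in soleus). In psoas vs EDL, edgeR called 0 of 6, where 2.11% of all genes were called. At an unadjusted p under 0.05, 3 of 6 passed in psoas vs EDL (29.0% of all genes), DESeq2 called 2 (6.80% of all genes), and limma-voom called 1 (2.19% of all genes). DESeq2 and limma-voom called the same number as edgeR in soleus vs EDL (9.43% and 6.06% of all genes) and in soleus vs psoas (8.58% and 5.08%). The 3 comparisons share libraries, so their values are given side by side and not as separate evidence.

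**Figure D1:**
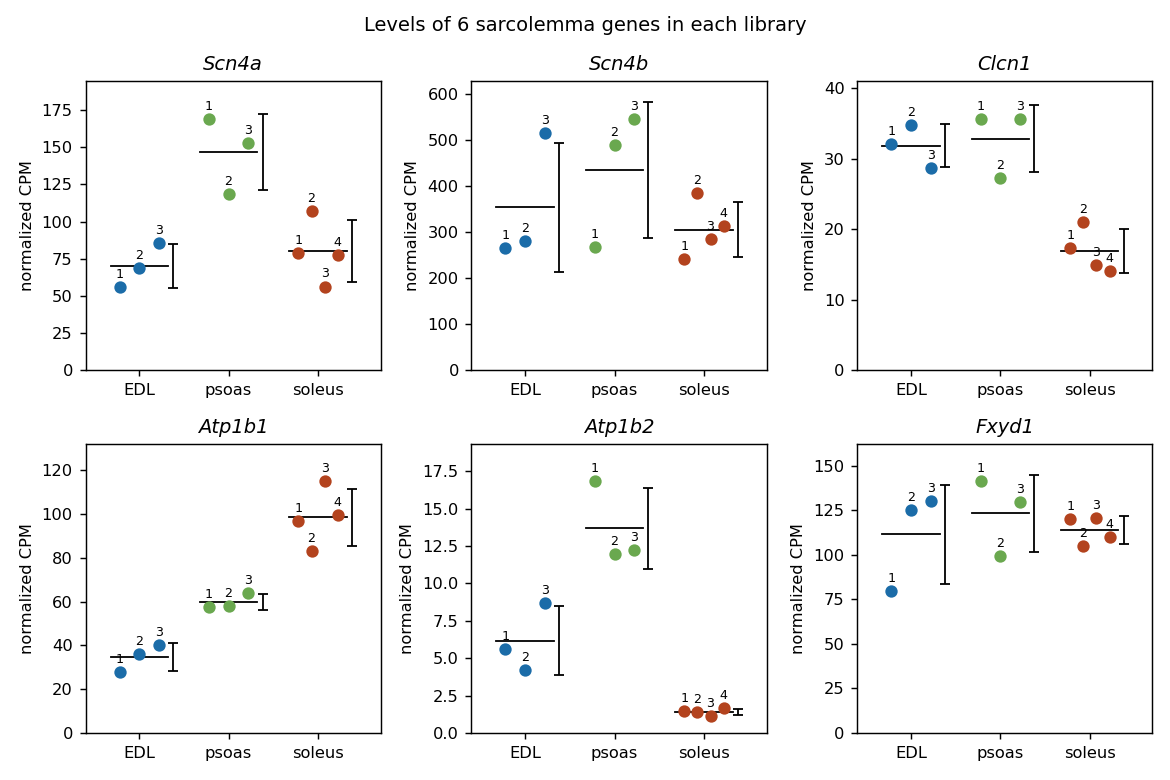
Normalized CPM (linear axis from 0) of the 6 genes in each library, by muscle. Each numbered point is 1 library with its replicate number, the horizontal line is the mean, and the bar beside it is 1 SD (n = 3, 3, and 4). Atp1b1 steps up from EDL through psoas to soleus without overlap, Atp1b2 is highest in psoas and lowest in soleus, Clcn1 is lowest in soleus, and Scn4b and Fxyd1 overlap between all muscles.

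**Figure D2:**
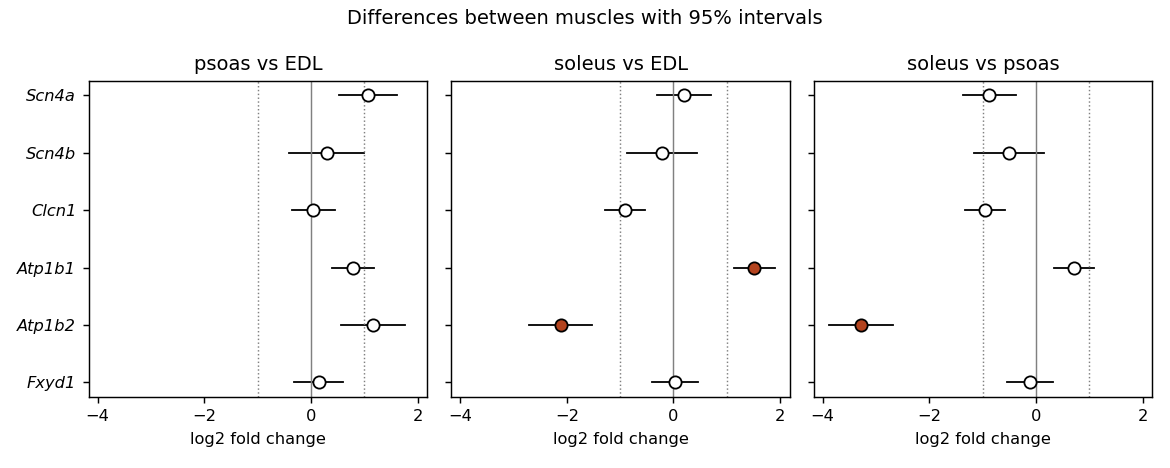
Log2 fold changes of the 6 genes in the 3 comparisons. Points are edgeR estimates, lines are 95% intervals, dotted lines mark a fold change of 2, and filled points passed both thresholds. The filled points are Atp1b1 and Atp1b2 in soleus vs EDL and Atp1b2 in soleus vs psoas, and the intervals of Scn4b and Fxyd1 include 0 in each comparison.

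Of the 6 genes, those for beta subunits of the sodium pump differed most between soleus and EDL, and in opposite directions. Atp1b1 (ENSMUSG00000026576, GRCm38 chr1:164437109-164458355, minus strand), the most widely expressed beta subunit gene, was at 27.6, 36.0, and 40.1 normalized CPM in EDL. It was at 57.6, 58.1, and 63.9 in psoas, and at 97.0, 83.1, 115, and 99.4 in soleus. No library of one muscle overlapped with those of another, which 29.5% of all genes also showed in soleus vs EDL, 29.6% in psoas vs EDL, and 25.8% in soleus vs psoas. The level in soleus was 2.85-fold that in EDL (log2 fold change 1.51, SE 0.18, edgeR adjusted p = 3.2e-04), and the gene was called in 22 of 22 alternative analyses of that comparison. The step from EDL to psoas was 0.79 on the log2 scale (SE 0.18, edgeR adjusted p = 0.0199) and the step from psoas to soleus was 0.72 (SE 0.17, edgeR adjusted p = 0.0160), and neither was called. With read trimming as a covariate, the adjusted p for soleus vs psoas was 0.0973. Exons of Atp1b1 share 575 bases with Nme7 on the opposite strand, whose counts were 18 to 98 per library against 730 to 2779 for Atp1b1. The libraries were made with a stranded kit, but the strand setting of the counting is not given in the sources used here.

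The promoter windows of Atp1b1 and Clcn1 are shown because these genes differed between soleus and EDL in opposite directions and because their start sites in RefSeq and GENCODE coincide. Each window holds the 250 bases before the start, 5′ to 3′ on the gene's strand, taken from RefSeq (GRCm38.p6). Promoters were found for 5 of the 6 genes. For Scn4a, Scn4b, and Fxyd1 the starts in RefSeq and GENCODE lie 3898, 229, and 2346 bases apart. Capitals mark matches on either strand to a TATA box (TATAAA), to an E-box of either kind (CAGCTG for one and CACCTG for the other), to a CCAAT box (CCAAT), to a GC box (GGGCGG), or to the MEF2 motif. These motifs were picked with these sequences at hand.
Atp1b1 (chr1:164458356-164458605): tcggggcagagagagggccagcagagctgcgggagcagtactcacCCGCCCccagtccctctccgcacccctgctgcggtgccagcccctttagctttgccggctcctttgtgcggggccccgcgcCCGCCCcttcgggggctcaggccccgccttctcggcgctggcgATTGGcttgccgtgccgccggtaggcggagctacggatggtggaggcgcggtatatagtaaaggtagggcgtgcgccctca
Clcn1 (chr6:42286435-42286684): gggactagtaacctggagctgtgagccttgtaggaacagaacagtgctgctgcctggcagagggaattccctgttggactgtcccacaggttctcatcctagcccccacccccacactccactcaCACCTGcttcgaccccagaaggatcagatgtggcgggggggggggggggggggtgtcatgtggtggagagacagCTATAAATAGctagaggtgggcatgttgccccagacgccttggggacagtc
The Atp1b1 window had a GC content of 70.4%. It held CCAAT once, read as ATTGG at 81 to 77 bases before the start, and GGGCGG on the reverse strand, read as CCGCCC, at 205 to 200 and at 124 to 119. Of all 32817 promoter windows of this length, 33.8% held CCAAT and 32.7% held GGGCGG. The Clcn1 window had a GC content of 60.0%. It held the MEF2 motif as CTATAAATAG at 51 to 42 bases before the start, where it overlaps a match to TATAAA, and CACCTG at 125 to 120. The MEF2 motif was found in 2.92% of all windows, TATAAA in 12.4%, CACCTG in 17.2%, and CAGCTG in 13.0%. These matches describe letters in the windows and do not show binding.

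Atp1b2 (ENSMUSG00000041329, GRCm38 chr11:69599736-69605942, minus strand) encodes a beta subunit best known from brain glia. Its levels were 5.63, 4.20, and 8.68 normalized CPM in EDL, 16.8, 11.98, and 12.2 in psoas, and 1.44, 1.41, 1.12, and 1.64 in soleus. The lowest psoas library was above the highest EDL library, and the lowest EDL library was above the highest soleus library. Such a lack of overlap was seen for 29.6% of all genes in psoas vs EDL, 29.5% in soleus vs EDL, and 25.8% in soleus vs psoas. Atp1b2 was 9.71-fold lower in soleus than in psoas (log2 fold change -3.28, SE 0.27, edgeR adjusted p = 6.5e-05) and 4.33-fold lower than in EDL (log2 fold change -2.12, SE 0.27, edgeR adjusted p = 5.3e-04). Both calls were made in 22 of 22 alternative analyses. The soleus values rest on 14 to 47 counts per library. Between the fast muscles, Atp1b2 was 2.24-fold higher in psoas (log2 fold change 1.16, SE 0.27), at an edgeR adjusted p of 0.0213 that missed the threshold. The adjusted p ranged from 0.00138 to 0.0968 over 23 alternatives, 4 of which called the gene: DESeq2, limma-voom without and with the animal code, and edgeR without EDL 3 (adjusted p = 0.0047). In the trimmed libraries alone the difference was 1.55 (edgeR adjusted p = 0.0273).

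Within each library, the ratio of Atp1b1 to Atp1b2 counts per kilobase needs no scaling between libraries. It was 6.51, 11.3, and 6.13 in EDL, 4.54, 6.43, and 6.91 in psoas, and 89.5, 78.4, 137, and 80.6 in soleus. Every soleus ratio was above every EDL and psoas ratio, and the EDL and psoas ratios overlapped. On the geometric mean, the soleus ratio was 12.2-fold that of EDL and 16.0-fold that of psoas (exact two-sided permutation test, p = 0.0571 for each, the smallest that 4 against 3 libraries can give, and 0.171 after Benjamini-Hochberg adjustment over the 9 ratio tests). The ratio in psoas and EDL differed by -0.39 on the log2 scale (exact permutation p = 0.5). Among the untrimmed libraries, EDL is held by EDL 3 only and psoas by psoas 3 only. In these libraries the log2 differences were 3.94 for soleus vs EDL, 3.76 for soleus vs psoas, and 0.17 for psoas vs EDL, which reverses the last. As shares of the 4 beta family transcripts (Atp1b1 to Atp1b4) per kilobase, Atp1b1 made up 51.1 to 64.0% in EDL, 67.4 to 72.2% in psoas, and 75.7 to 80.8% in soleus. Atp1b2 made up 5.52 to 10.4% in EDL, 10.4 to 14.8% in psoas, and 0.567 to 0.978% in soleus. Atp1b3, the third beta gene, held 21.9 to 35.05% in EDL, 14.9 to 19.6% in psoas, and 14.4 to 18.4% in soleus. Atp1b4 held 3.66 to 6.04% in EDL, 1.90 to 2.52% in psoas, and 2.68 to 6.46% in soleus.

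Atp1b4, a muscle-restricted member of the beta family, was called higher in soleus than in psoas (log2 fold change 1.81, SE 0.35, edgeR adjusted p = 0.0051), and the call was made in 11 of 22 alternatives. It was lost without psoas 1, psoas 2, psoas 3, soleus 2, soleus 3, and soleus 4 in turn (adjusted p 0.010 to 0.028).

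**Figure D3:**
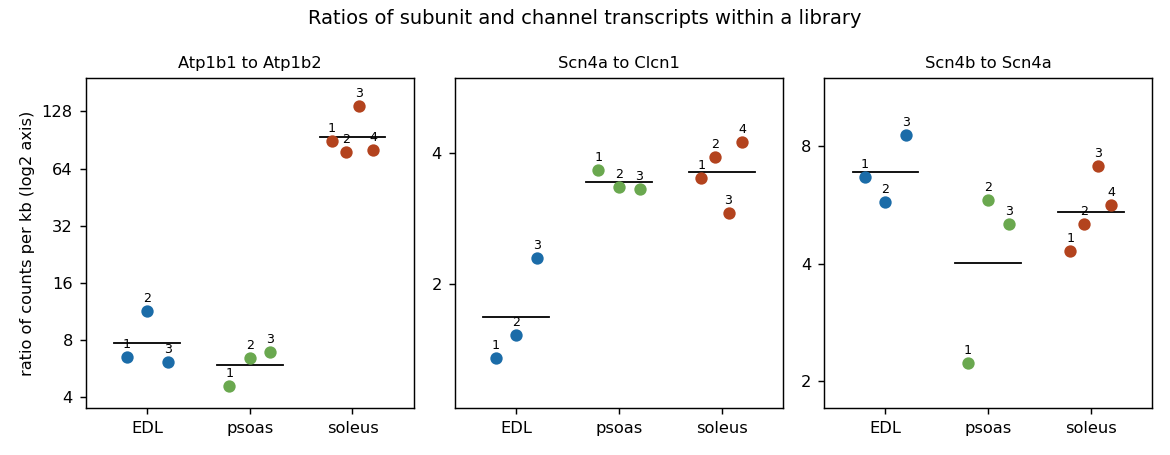
Ratios of counts per kilobase within each library on log2 axes, for Atp1b1 to Atp1b2, Scn4a to Clcn1, and Scn4b to Scn4a. Numbered points are libraries with their replicate number and lines are geometric means. The soleus points stand apart in the ratio of the beta subunits (78.4 to 137 against at most 11.3), the EDL points are the lowest in Scn4a to Clcn1, and Scn4b to Scn4a overlaps between all muscles.

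Fxyd1 (ENSMUSG00000036570, GRCm38 chr7:31051678-31057199, minus strand) encodes phospholemman, which restrains the pump until it is phosphorylated. Its levels were 79.7, 125, and 130 normalized CPM in EDL, 141, 99.3, and 130 in psoas, and 120, 105, 120, and 110 in soleus. The 3 muscles overlapped. The log2 differences were 0.14 in psoas vs EDL (95% interval -0.32 to 0.61), 0.03 in soleus vs EDL (-0.40 to 0.46), and -0.12 in soleus vs psoas (-0.55 to 0.32), so a difference of a fold of 2 lay outside each interval. Of the other FXYD genes measured, Fxyd6 was called higher in soleus than in psoas. Its levels were 37.6, 54.1, 79.8, and 38.9 normalized CPM in soleus, 3.69, 11.1, and 12.6 in psoas, and 14.6, 17.8, and 21.6 in EDL (log2 fold change soleus vs psoas 2.55, SE 0.41, edgeR adjusted p = 0.0021). Against EDL its adjusted p was 0.0192.

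Scn4a (ENSMUSG00000001027, GRCm38 chr11:106318592-106353288, minus strand), the pore-forming subunit of the adult muscle sodium channel, was highest in psoas. Its levels were 56.2, 68.8, and 85.3 normalized CPM in EDL, 169, 119, and 153 in psoas, and 79.0, 107, 56.3, and 77.8 in soleus. The 3 psoas libraries were above the other 7, and EDL and soleus overlapped. Groups did not overlap for 29.6% of all genes in psoas vs EDL and for 25.8% in soleus vs psoas. The psoas level was 2.096-fold that of EDL (log2 fold change 1.07, SE 0.25, 95% interval 0.52 to 1.61) at an edgeR adjusted p of 0.0214, which missed the threshold. DESeq2 (adjusted p = 4.8e-04) and the fit with sex as a covariate and without soleus 3 (edgeR adjusted p = 0.00682) called it, and over all 23 alternatives the adjusted p reached 0.104. In the trimmed libraries alone the log2 difference was 1.20 (edgeR adjusted p = 0.0348). Soleus was lower than psoas by 0.87 on the log2 scale (SE 0.23, edgeR adjusted p = 0.0256) and differed from EDL by 0.19 (95% interval -0.31 to 0.70).

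Scn4b (ENSMUSG00000046480, GRCm38 chr9:45138395-45154152, plus strand), an auxiliary beta subunit linked to resurgent sodium current, varied more among libraries of one muscle than between muscles. It was at 265, 281, and 515 normalized CPM in EDL, 266, 489, and 546 in psoas, and 241, 383, 284, and 312 in soleus. All 3 muscles overlapped, and in EDL the untrimmed library, EDL 3, was the highest. The intervals of its log2 differences were wide, at -0.41 to 1.001 for psoas vs EDL, -0.87 to 0.45 in soleus against EDL, and -1.16 to 0.15 in soleus against psoas. With read trimming as a covariate the difference between soleus and psoas was -0.97 (edgeR adjusted p = 0.0532) instead of -0.51 (0.302). The ratio of Scn4b to Scn4a per kilobase overlapped between all muscles (exact permutation p = 0.2 in psoas vs EDL, 0.229 in soleus against EDL, and 0.457 in soleus against psoas).

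Clcn1 (ENSMUSG00000029862, GRCm38 chr6:42286685-42315756, plus strand) encodes the ClC-1 channel, whose loss causes myotonia. Its levels were 32.1, 34.8, and 28.7 normalized CPM in EDL, 35.6, 27.3, and 35.7 in psoas, and 17.4, 21.1, 14.9, and 14.1 in soleus. All soleus libraries were below all fast muscle libraries. Groups did not overlap for 29.5% of all genes in soleus vs EDL and for 25.8% in soleus vs psoas. Soleus was lower by 0.92 than EDL (SE 0.17, edgeR adjusted p = 0.0048) and by 0.96 than psoas (SE 0.17, edgeR adjusted p = 0.0037) on the log2 scale. These differences of 1.89-fold and 1.95-fold passed the threshold on the adjusted p but not that on the fold change, so Clcn1 was not called. Counting each gene with an adjusted p under 0.01 whatever its fold, 3 of 6 genes passed in soleus vs EDL (6.82% of all genes) and 2 of 6 in soleus vs psoas (6.59% of all genes), and Clcn1 was the gene added in both. Its adjusted p rose to at most 0.0315 over the alternatives in soleus vs EDL and 0.0239 in soleus vs psoas. Psoas and EDL differed by 0.04 (95% interval -0.36 to 0.45). Clcn1 exons share 445 bases with Fam131b on the opposite strand, whose counts were 6 to 39 per library against 187 to 1845 for Clcn1.

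The ratio of Scn4a to Clcn1 per kilobase was 1.35 to 2.29 in EDL, 3.30 to 3.66 in psoas, and 2.91 to 4.24 in soleus. EDL was below both other muscles without overlap. The log2 difference was 1.03 for psoas vs EDL (exact two-sided permutation test, p = 0.1, the smallest for 3 against 3, adjusted p = 0.225) and 1.11 for soleus vs EDL (p = 0.0571, adjusted p = 0.171). Psoas and soleus overlapped (exact permutation p = 0.629). In the untrimmed libraries alone, the differences from EDL 3 were smaller, at 0.53 for psoas 3 and 0.66 for the mean of soleus. Between psoas and EDL the Scn4a levels did not overlap while the Clcn1 levels did, and between soleus and EDL the reverse was seen. Levels without overlap were also found for 29.6% of all genes in psoas vs EDL and 29.5% in soleus vs EDL.

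A list of 51 other genes of sodium and chloride transport was read from the same fit, of which 33 were measured and the other 18 are not analysed here. In psoas vs EDL 0 were called higher and 2 lower (0.540% and 1.57% of all genes), in soleus vs EDL 2 higher and 1 lower (3.59% and 2.18% of all genes), and in soleus vs psoas 4 higher and 0 lower (2.99% and 2.71% of all genes). The median log2 fold change of the 33 was -0.16, 0.18, and 0.07 in the 3 comparisons, against 0.01, -0.05, and 0.02 for all genes, and that of the 6 genes above was 0.54, -0.09, and -0.69. Of the 7 chloride channel and transporter genes measured beside Clcn1 (Clcn2 to Clcn7 and Ostm1), 0 were called by edgeR, DESeq2, or limma-voom in any comparison. In psoas vs EDL, soleus vs EDL, and soleus vs psoas, 0, 1, and 2 had an unadjusted p under 0.05. Of all 16112 genes, 4679, 5646, and 4574 had such a p. The shares of all genes called were 2.11%, 5.77%, and 5.69% in edgeR, 6.80%, 9.43%, and 8.58% in DESeq2, and 2.19%, 6.06%, and 5.08% in limma-voom. For 7 genes, 0 calls is close to these shares. Of the 7 measured genes of the cation-chloride cotransporter family, some of which set the chloride gradient, Slc12a4 was called. It was at 24.9, 20.4, 22.6, and 24.0 normalized CPM in soleus, 7.36, 6.56, and 9.61 in EDL, and 6.15, 3.30, and 5.38 in psoas. The log2 difference was 1.56 against EDL (SE 0.22, edgeR adjusted p = 8.9e-04) and 2.20 against psoas (SE 0.23, edgeR adjusted p = 1.6e-04). Against EDL the call was lost in 1 of 22 alternatives, the fit with read trimming as a covariate (edgeR adjusted p = 0.011).

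Among the sodium channel genes, Scn2a, best known from neurons, was at 3.42, 4.19, 12.04, and 5.12 normalized CPM in soleus, 1.59, 1.55, and 1.32 in EDL, and 1.13, 1.01, and 0.921 in psoas. It was called higher in soleus vs EDL (log2 fold change 2.04, SE 0.40, edgeR adjusted p = 0.0062) and vs psoas (2.56, SE 0.43, edgeR adjusted p = 0.0024). Soleus 3 held the highest level by a wide margin. The call against EDL was lost in 10 of 22 alternatives. Among these were the fit with read trimming as a covariate and those without EDL 1, EDL 2, EDL 3, psoas 1, psoas 2, or soleus 4. The call against psoas was lost in 4, among them the fits without psoas 1 or psoas 2. The adjusted p was at most 0.0405 against EDL and 0.0159 against psoas. The 6 measured nerve and Schwann cell markers summed to 11.2 to 26.4 CPM in soleus, 14.5 to 23.3 in EDL, and 8.75 to 58.3 in psoas. In each comparison 0 of 6 were called by edgeR, DESeq2, or limma-voom (1, 0, and 1 at an unadjusted p under 0.05). Of all genes, edgeR called 2.11% in psoas vs EDL, 5.77% in soleus vs EDL, and 5.69% in soleus vs psoas. For 6 markers, 0 calls is close to these shares. An unadjusted p under 0.05 was reached by 4679, 5646, and 4574 of all 16112 genes.

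Nalcn, a sodium leak channel, and Fgf14, a partner that binds sodium channels, were highest in EDL. Nalcn was at 3.18, 3.83, and 2.58 normalized CPM in EDL, 0.369, 0.507, and 0.425 in psoas, and 1.09, 1.23, 1.04, and 0.581 in soleus. Fgf14 was at 4.60, 4.37, and 1.87 in EDL, 0.237, 0.254, and 0.354 in psoas, and 1.16, 1.59, 0.558, and 1.06 in soleus. In psoas these values rest on 4 to 14 counts per library. Nalcn was called lower in psoas (log2 fold change -2.90, SE 0.35, edgeR adjusted p = 0.0014) and in soleus (-1.69, SE 0.29, edgeR adjusted p = 0.0032) than in EDL. Fgf14 was called lower in psoas than in EDL (-3.72, SE 0.48, edgeR adjusted p = 0.0021), a call lost without psoas 1 or psoas 2 (adjusted p = 0.013 each). The call of Nalcn in soleus vs EDL was lost in 4 of 22 alternatives (adjusted p at most 0.0404). Among them were the fits without EDL 1, without EDL 2, and with read trimming as a covariate. The summed level of 8 tendon and fibroblast markers was also highest in EDL. It was 2066 to 2612 CPM in EDL, 336 to 486 in psoas, and 455 to 965 in soleus, and psoas and soleus overlapped. Against EDL, 5 of the 8 markers were called lower in psoas (1.57% of all genes) and 2 lower in soleus (2.18% of all genes). Although the sums of psoas and soleus overlapped, 4 of the 8 markers were called higher in soleus than in psoas (2.99% of all genes). Their part in the result was not tested. Of 22 markers of endothelium, smooth muscle and pericytes, adipocytes, and erythroid cells, edgeR called 0 in each comparison, DESeq2 0, 1, and 2, and limma-voom 0. The shares of all genes called in psoas vs EDL, soleus vs EDL, and soleus vs psoas were 2.11%, 5.77%, and 5.69% in edgeR. They were 6.80%, 9.43%, and 8.58% in DESeq2 and 2.19%, 6.06%, and 5.08% in limma-voom. At an unadjusted p under 0.05, 8, 8, and 15 of the 22 passed in psoas vs EDL, soleus vs EDL, and soleus vs psoas, against 4679, 5646, and 4574 of all 16112 genes. Of 5 macrophage markers, 1 was called lower in psoas and 1 in soleus than in EDL (1.57% and 2.18% of all genes).

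**Figure D4:**
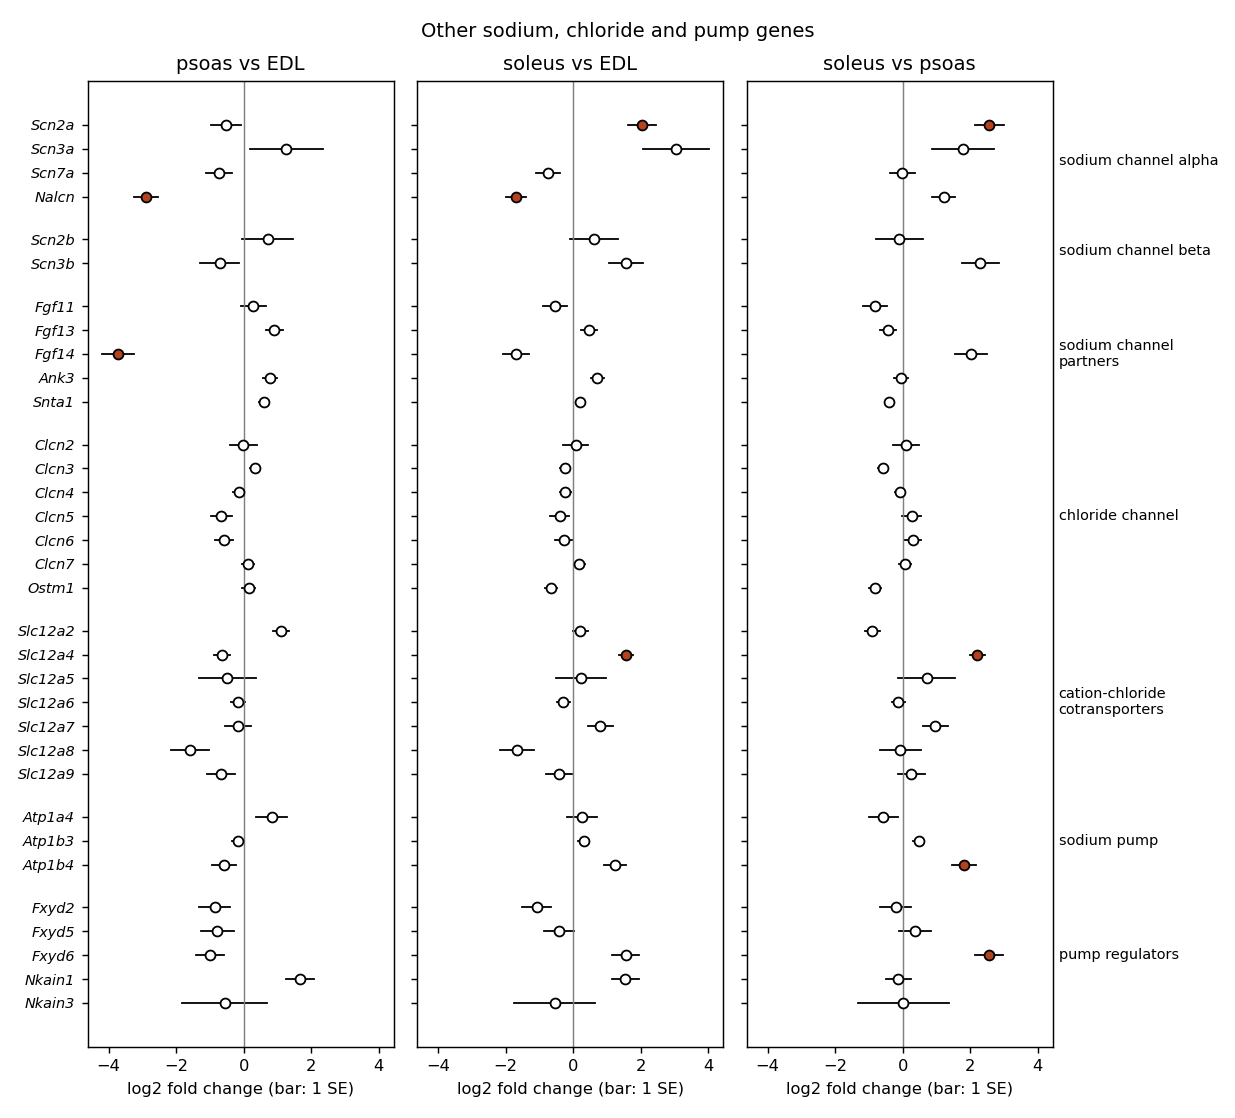
Log2 fold changes of the 33 other measured genes in the 3 comparisons, by group of genes. Points are edgeR estimates, bars are 1 SE, and filled points passed both thresholds. Filled points are Nalcn and Fgf14 at the left in psoas vs EDL, Nalcn at the left and Scn2a and Slc12a4 at the right in soleus vs EDL, and Scn2a, Slc12a4, Atp1b4, and Fxyd6 at the right in soleus vs psoas.

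For each of the 6 genes, the genes with the most similar pattern were sought among genes with a mean of at least 10 normalized CPM, by the root mean square difference over the 10 libraries of log2 CPM centered on each gene's mean. Agpat3 was nearest to Atp1b1 (0.11, against a spread of 0.65 of Atp1b1 itself), followed by Mknk2 and Camta1. Camk2a was nearest to Atp1b2 (0.27, against 1.25), followed by Ky and Prkab2. Mean Camk2a was 31.4 CPM in EDL, 68.3 in psoas, and 10.5 in soleus. The genes nearest to Clcn1 were Sema6d (0.17, against 0.49), Pde4b, and Jak1, and those nearest to Scn4a were Prrc2b (0.16, against 0.53), Atg9a, and Wbp1l. Scn4b was nearest to Tagap1 (0.15, against 0.42), Pkia, and Ibtk. Fxyd1, whose own spread was 0.23, was nearest to Pqbp1 (0.10), Dad1, and Nudc. These likenesses are descriptions over 10 libraries that share their muscle, depth, and trimming.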

How the data were processed

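Total RNA from EDL, psoas, and soleus was made into stranded libraries after ribosomal RNA depletion and sequenced as read pairs. The authors trimmed 4 libraries with Trimmomatic 0.32, aligned with TopHat2 2.1.1 to GRCm38.p4, counted reads per gene, and dropped genes unless 3 or more samples had 10 or more reads. All 16112 genes met this. What the authors deposited is 1 table of unnormalized counts for each library. Strand setting and treatment of multiply aligned reads are not given in the sources used here, nor is the sequencing run of each library. The 4 libraries with low read mapping were EDL 1, psoas 1, psoas 2, and soleus 1.

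Counts were analyzed in 1 edgeR 4.0.16 quasi-likelihood fit over 10 libraries (R 4.3.3, TMM, no covariate, Benjamini-Hochberg over all genes), with calls at a fold over 2 and an adjusted p under 0.01. Alternatives were DESeq2 1.42.0, limma 3.58.1 (voom, without and with the animal code), other normalizations, filters, covariates, thresholds, and thinned counts, a replicate block, the trimmed libraries alone, and each library left out in turn. Scripts were tested on simulated data. Symbols, exon lengths, and coordinates came from GENCODE M21 (GRCm38), with 16032 genes matched. RPKM used summed exon lengths. Ratios were tested by exact two-sided permutation. Some results that had been planned are not reported here, and list counts and ratio adjustments were computed without them. p-values measure the spread between these libraries, some of which share an animal.

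Named genes were the 6 examined, listed transport genes that passed the thresholds, and the 3 most similar genes to each of the 6. Members and lists were chosen with earlier results of these data known. Dixon's ratio was used to look for outlying soleus values, and 0 of 15 sets of soleus values passed its critical value of 0.829.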

Additional observations from a re-analysis of the deposited data

How the results depend on the processing

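Called members in psoas vs EDL numbered 0 in edgeR, 2 with DESeq2, 1 with limma-voom with or without the animal code, 1 with sex as a covariate and soleus 3 left out, as in every fit with sex, 2 at an adjusted p under 0.05, and 0 to 1 with each library left out (1 without EDL 3). In soleus vs psoas, the count of 1 became 2 at any fold (chosen after seeing the data) and ranged from 1 to 2 with each library left out (2 without psoas 2 or soleus 2, adding Clcn1). In soleus vs EDL it was 2 except for 3 with upper-quartile normalization, at any fold, and without soleus 2. The other listed genes called in psoas vs EDL went from 2 to 4 with DESeq2, with sex and without soleus 3, or at an adjusted p under 0.05, and to 1 to 5 with each library left out (5 without EDL 3, 1 without psoas 1 or psoas 2). In soleus vs EDL they went from 3 to 7 with DESeq2, 0 with read trimming, and 9 at an adjusted p under 0.05, and to 1 to 4 with each library left out (1 without EDL 1 or EDL 2). In soleus vs psoas they went from 4 to 6 with DESeq2, 2 with read trimming, and 7 at an adjusted p under 0.05, and to 2 to 5 with each library left out (2 without psoas 2). The replicate block gave 0, 2, and 1 called members and 2, 2, and 2 other genes. Same-numbered psoas and EDL libraries deviated together at 0.248, 0.088, and 0.503. The pairs with a shared animal code did so at 0.340 (psoas 1 and soleus 1), 0.187 (EDL 3 and soleus 2), and 0.381 (psoas 3 and soleus 4). These values overlap and do not settle whether the number pairs libraries, and the fit without covariates did not use it. In the untrimmed libraries alone, where EDL is EDL 3 only and psoas is psoas 3 only, the log2 ratio of Atp1b1 to Atp1b2 differed by 0.17 in psoas vs EDL (reversed). There, the log2 ratio differences were -0.65 for Scn4b to Scn4a in soleus vs EDL, and 0.53 and 0.66 for Scn4a to Clcn1 in psoas vs EDL and soleus vs EDL. No call was reversed. The log2 difference of Clcn1 in psoas vs EDL reversed to -0.033 with upper-quartile normalization, -0.00122 with thinned counts, -0.0935 in trimmed libraries, and ranged from -0.0468 to 0.153 with each library left out. That of Fxyd1 in soleus vs EDL reversed to -0.0548 with upper-quartile normalization, -0.00857 with at least 1 CPM in 3 libraries, -0.12 with trimming as a covariate, -0.0731 with sex as a covariate and without soleus 3, and ranged from -0.22 to 0.15 with each library left out. With each library left out, Fxyd1 in psoas vs EDL ranged from -0.0813 to 0.27, Scn4b in soleus vs EDL from -0.43 to 0.16 (positive without EDL 3), and the log2 ratio of Scn4a to Clcn1 in soleus vs psoas from -0.00434 to 0.18 (negative without soleus 4). The cause was not tested. Upper-quartile normalization moved the median of all genes to -0.14 in soleus vs EDL.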
